A study of Mus musculus with 42 samples.

Results

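An odour response in an olfactory sensory neuron begins when a receptor on the cilia activates a G protein, adenylyl cyclase makes cyclic AMP, and cyclic AMP opens a channel that admits calcium. Ending the response takes several further steps: cyclic AMP is broken down, calcium is pumped or exchanged out of the cilia, the active receptor is phosphorylated and bound by arrestin, and calcium-dependent kinases turn the cascade down. Genes for these steps set how quickly a neuron can signal again and how it adapts to an odour that stays. The 9 genes described here were listed by name for this role, without a measured value in the rule. Earlier results of these data were known when they were chosen. The genes are Omp, Pde1c, Pde4a, Grk3, Arrb2, Slc24a4, Stoml3, Camk2a and Atp2b2. They are 9 of the 44674 genes in the table, and all 9 had enough reads to be tested in every comparison.

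Male C57BL/6NCrl mice, adults of 8 to 12 weeks, spent 1 h without odour or with the smell of normal chow (NCD), of a bacon-flavoured diet (Bacon) or of a high-fat diet made with pork lard (HFD), and RNA was measured in their main olfactory epithelium. Epithelia of 4 mice were combined into each pool, with 5 pools without odour, 6 with NCD, 5 with Bacon and 5 with HFD odour. A pulldown library of every pool was made by pS6-ribotrap, in which an antibody against phosphorylated ribosomal protein S6 collects ribosomes of recently active cells with their messenger RNA. An input library held the RNA of the whole tissue, which makes 42 libraries from 21 pools. Every pool mixes 4 animals, so no value belongs to a single mouse. The deposited counts are given below as CPM, counts scaled to the library total, after TMM normalization, and the pulldown-to-input ratio of a pool is on the log2 scale, where 0 means equal levels. A gene was called where the adjusted p-value of edgeR's quasi-likelihood test over all genes was under 0.001, and an adjusted p-value under 0.05 served as a looser second threshold. All odour groups were compared with the same 5 pools without odour.

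Several properties of the libraries bear on what follows. Depth was even, at 24839555 to 36781553 counts in the inputs and 25392812 to 36738330 in the pulldowns. Ribosomal RNA genes took 22.2 to 33.0% of the input counts without odour against 9.81 to 22.4% with an odour, and 15.2 to 29.3% against 11.1 to 22.5% in the pulldowns. The input of the no odour pool 4 and the pulldown of the Bacon pool 1 stood apart from their groups: their log2 levels deviated from the median of the other libraries of the group with an SD over genes of 0.428 and 0.409, against a median of 0.134 over all 42 libraries and 0.275 for the next highest. The no odour pools 1, 2 and 3 held RNA of Purkinje cell markers, genes of a neuron of the cerebellum. The 8 markers were listed after the values were seen. They summed to 90.9, 97.7 and 99.0 CPM in these pulldowns against 18.7 to 28.9 CPM in the other 18. All 8 were higher in the pulldowns of pools 1, 2 and 3 than in every other pulldown. Where leaving out these pools ended a call of a member, the value without them is given.

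Markers of the labelled tissue were present. The 9 markers of mature olfactory sensory neurons, a list without Omp and Stoml3 of which 8 also belong to the signalling cascade described last, summed to 7387 to 8478 CPM in the inputs without odour. Sustentacular cell markers, of the supporting cells of the epithelium, summed to 7338 to 9846 CPM in the same inputs and 2477 to 3590 CPM in the pulldowns. Horizontal basal cell markers summed to 65.6 to 71.6 CPM against 10.7 to 22.6 CPM, and ensheathing glia markers to 166 to 220.5 CPM against 89.3 to 106 CPM. Several other non-neuronal markers were higher in the pulldowns. Bowman gland markers summed to 828 to 1786 CPM in these inputs against 3162 to 4498 CPM, and erythroid markers to 362 to 719 CPM against 1562 to 2263 CPM. Macrophage markers summed to 38.1 to 52.9 CPM against 84.1 to 121 CPM, and neutrophil markers to 31.6 to 69.5 CPM against 137 to 171 CPM. In such bulk tissue, fewer cells of a type and less RNA per cell cannot be told apart.

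Per kilobase of exon, the members spanned a wide range of levels. Without odour, Omp, the olfactory marker protein that speeds the response of mature neurons, had the highest input level of the 9, at 3296 ± 458 CPM per kb (SD, n = 5), followed by Stoml3, a stomatin-like membrane protein of the cilia, at 1921 ± 322 CPM per kb. Their pools did not overlap in the inputs, but they did in the pulldowns, at 3133 ± 333 CPM per kb for Omp and 2688 ± 395 CPM per kb for Stoml3. Pde4a, a cyclic AMP phosphodiesterase found in the cell body rather than the cilia, came next at 53.8 ± 6.99 CPM per kb. Pde1c, the calcium- and calmodulin-activated phosphodiesterase of the cilia, had 10.3 ± 0.893 CPM per kb, and Arrb2, a beta-arrestin, 8.60 ± 0.723 CPM per kb. Slc24a4, the exchanger that moves calcium and potassium out of the cilia against sodium, had 6.85 ± 1.29 CPM per kb. In this middle group Pde1c overlapped with Arrb2, and Arrb2 with Slc24a4. Camk2a, a calcium- and calmodulin-dependent kinase, had 2.76 ± 0.643 CPM per kb and overlapped with Grk3, the G-protein-coupled receptor kinase of odour receptors, at 1.88 ± 0.431 CPM per kb. The lowest was Atp2b2, a plasma membrane calcium pump, at 0.550 ± 0.188 CPM per kb. The exon lengths used here run from 2.144 kb for Omp to 20.067 kb for Pde1c and count every annotated exon, so that a gene with many rarely used exons is set low. At the lowest level the counts were still 104 to 421 reads a library for Atp2b2, and at the highest 138335 to 306184 for Omp.

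Reads of the members are largely their own. Of the 31-base words in their transcripts, 0% (Omp) to 1.12% (Arrb2) also occur in transcripts of other genes, and the shared words of Arrb2 are those of Mir7115, a microRNA gene inside it. Omp, on chromosome 7 at 98143359-98145502 of GRCm38 on the minus strand, is a single exon within Capn5 on the same strand and overlaps none of its exons.

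Before any odour, most members were already richer in the pulldown than in the input. The comparison of pulldown with input in the no odour pools called 6 of 9 members as higher and 0 as lower, while 35.8% of all genes tested were called in either direction. The 6 were Arrb2 at a log2 difference of 0.75 ± 0.09 (SE, adjusted p = 6.78e-08), Atp2b2 at 0.65 ± 0.10 (adjusted p = 5.05e-06), Slc24a4 at 0.55 ± 0.07 (adjusted p = 6.19e-07), Stoml3 at 0.49 ± 0.08 (adjusted p = 1.97e-05), Pde4a at 0.38 ± 0.07 (adjusted p = 3.00e-05) and Pde1c at 0.26 ± 0.06 (adjusted p = 0.000592). Camk2a at 0.22 ± 0.10, Omp at -0.07 ± 0.07 and Grk3 at -0.18 ± 0.11 did not pass. Without the no odour pools 1, 2 and 3 only Pde4a and Slc24a4 kept the call. This fit left pools 4 and 6 as controls, and the input of pool 4 was one that stood apart. In pools 4 and 6 the log2 ratio was 0.78 and 0.22 for Pde4a and 0.99 and 0.37 for Slc24a4. With each single pool left out in turn, both kept the call. In that fit Stoml3 stood at 0.47 ± 0.14 (adjusted p = 0.00983), Pde1c at 0.39 ± 0.09 (adjusted p = 0.00204), Arrb2 at 0.49 ± 0.13 (adjusted p = 0.00421) and Atp2b2 at 0.26 ± 0.15 (adjusted p = 0.181), so that the differences of Arrb2 and Atp2b2 were smaller and those of Stoml3 and Pde1c were not. With an odour present the same comparison called 6 members higher and 1 lower under NCD (46.0% of all genes), 5 higher and 2 lower under Bacon (41.3%) and 5 higher and 1 lower under HFD (42.7%). Grk3 was the member lower in the pulldown under all 3 odours, from -0.48 ± 0.11 under HFD to -0.76 ± 0.11 under Bacon, and Camk2a was lower under Bacon at -0.46 ± 0.10.

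The question of the odour comparisons is whether the share of a gene's RNA on the ribosomes of active cells changed within the hour. For the pulldown-to-input ratio, 0 of 9 members were called under NCD odour, 1 under Bacon and 0 under HFD, against 0.524%, 3.78% and 1.22% of all genes tested. At the looser threshold the counts were 3, 6 and 2 members, against 13.1%, 22.5% and 15.7% of all genes. Omp rose, Atp2b2 and Grk3 fell at that threshold under NCD; Omp and Stoml3 rose while Atp2b2, Camk2a, Grk3 and Slc24a4 fell under Bacon; Omp rose and Camk2a fell under HFD. The median log2 change of the 9 was -0.11, -0.04 and -0.16 under NCD, Bacon and HFD, and that of all genes between -0.01 and 0.00. The members thus did not move in a common direction, and the plot of the ratio by pool shows some higher and others lower than the same controls. The ratios of 1, 3 and 1 members did not overlap with the controls under NCD, Bacon and HFD, against 10.2%, 12.7% and 10.5% of all genes. In the input these counts were 0, 5 and 1 members, against 10.6%, 27.4% and 8.81% of all genes, and in the pulldown 3, 0 and 2 members, against 10.8%, 7.89% and 16.4%.

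**Figure D1:**
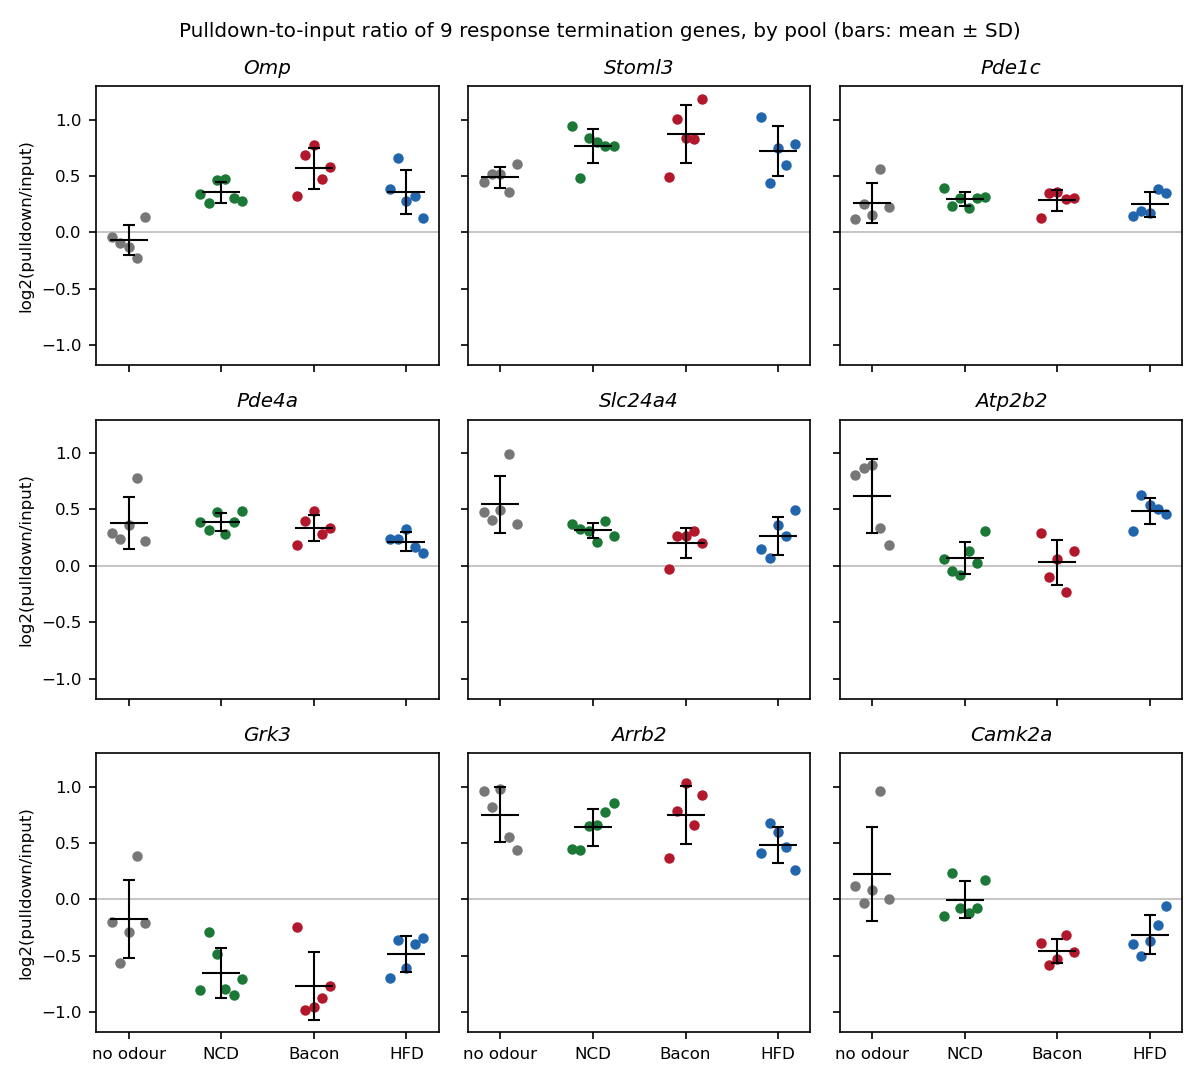
Each point is a pool and its height is the log2 pulldown-to-input ratio of the gene named above the panel; black bars give the mean and SD of each group (n = 5, 6, 5 and 5). Omp is the member whose NCD and Bacon pools all lie above the no odour pools, while the Bacon pools of Slc24a4 and Camk2a all lie below them.

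Omp was the member called. Its log2 ratio without odour was -0.04, -0.09, -0.13, -0.23 and 0.14 in pools 1, 2, 3, 4 and 6. With Bacon odour it was 0.32, 0.69, 0.78, 0.47 and 0.58 in pools 1 to 5. With NCD odour it ran from 0.26 to 0.48 with a median of 0.32, and with HFD odour it was 0.39, 0.66, 0.28, 0.32 and 0.13. No pool with NCD or Bacon odour overlapped with the no odour pools, and 4 of 5 with HFD odour lay above all of them. The change was 0.64 ± 0.10 under Bacon (adjusted p = 0.000189), 0.42 ± 0.10 under NCD (adjusted p = 0.00789) and 0.42 ± 0.10 under HFD (adjusted p = 0.00772). The Bacon call lies close to its threshold: without Bacon pool 2 or Bacon pool 3 it was lost, with an adjusted p-value of up to 0.00107 at a change no smaller than 0.58. It was also lost without the no odour pools 1, 2 and 3 together, at 0.64 (adjusted p = 0.00407).

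Under Bacon the input of Omp fell, and its pulldown passed no threshold. Its input level was 6557, 6525, 6673, 8816 and 6762 CPM in the no odour pools, and 4994, 5328, 4662, 5308 and 5532 CPM in the Bacon pools, all below the lowest control. The HFD pools, at 5093 to 6451 CPM, also lay below it. The input fell by 0.45 on the log2 scale under Bacon (SE 0.09, adjusted p = 0.000283); under HFD the difference was -0.28 ± 0.09 (adjusted p = 0.0247) and under NCD -0.13 ± 0.08 (adjusted p = 0.275). The input call was lost without Bacon pool 1 or Bacon pool 3. The pulldown level was 6717 ± 713 CPM without odour, 8266 ± 367 CPM with NCD, 7688 ± 934 CPM with Bacon and 7457 ± 609 CPM with HFD. Of these, the NCD pools all lay above the controls (0.29 ± 0.08, adjusted p = 0.00859) and the other groups overlapped with them (under Bacon 0.20 ± 0.08, adjusted p = 0.0832). The highest control input, that of pool 4, was the input that stood apart. Without that pool and Bacon pool 1 the input difference under Bacon was -0.35 (adjusted p = 0.000755) and the ratio difference 0.66 (adjusted p = 1.52e-05).

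Stoml3 rose in the pulldown, and its input was not called under any of the odours. Its pulldown level was 5092, 4998, 5417, 6653 and 6733 CPM in the no odour pools. It was 6266, 9442, 10519, 8829 and 10275 CPM in the Bacon pools, 8442, 8830, 8793, 7684 and 7459 CPM in the HFD pools, and 7509 to 9093 CPM with a median of 8500 CPM in the NCD pools. All NCD and HFD pools and 4 of 5 Bacon pools lay above every control, and the exception was Bacon pool 1, the pulldown that stood apart. The pulldown rose by 0.65 ± 0.11 on the log2 scale under Bacon (adjusted p = 0.000112) and by 0.53 ± 0.10 under NCD (adjusted p = 0.000721), and under HFD the difference was 0.51 ± 0.11 with an adjusted p-value of 0.00119. In the pulldown 1 member each was called under NCD (Stoml3), Bacon (Stoml3) and HFD (Arrb2), against 4.11%, 4.22% and 5.00% of all genes. At the looser threshold the pulldown counts were 5, 5 and 2 members, against 19.8%, 18.1% and 22.0% of all genes.

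The input of Stoml3 differed by less in the same direction, and no input difference passed either threshold. It was 4131 ± 692 CPM without odour and 4934 ± 344, 4908 ± 590 and 5062 ± 943 CPM with NCD, Bacon and HFD odour. The log2 ratio was 0.49 ± 0.09 (SD) without odour, 0.77 ± 0.15 with NCD, 0.87 ± 0.26 with Bacon and 0.72 ± 0.22 with HFD. Its difference passed the looser threshold under Bacon (0.38 ± 0.12 (SE), adjusted p = 0.0212). Under NCD (0.28 ± 0.11, adjusted p = 0.105) and HFD (0.23 ± 0.12, adjusted p = 0.195) it passed neither threshold. Markers of mature olfactory sensory neurons overlapped with the controls in the pulldown under each odour. Their summed pulldown level was 8294 to 9488 CPM without odour, 9341 to 10128 CPM with NCD, 8642 to 10814 CPM with Bacon and 8967 to 9313 CPM with HFD; in the inputs it was 8223 to 9805 CPM with an odour against 7387 to 8478 CPM without. Their part in the change of Stoml3 was not tested. The NCD call was lost when any of 12 single pools was left out. When no odour pools 1, 2 and 3 were left out, leaving 2 controls, the Stoml3 pulldown differences were 0.43 under Bacon (adjusted p = 0.0588) and 0.30 under NCD (adjusted p = 0.189).

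**Figure D2:**
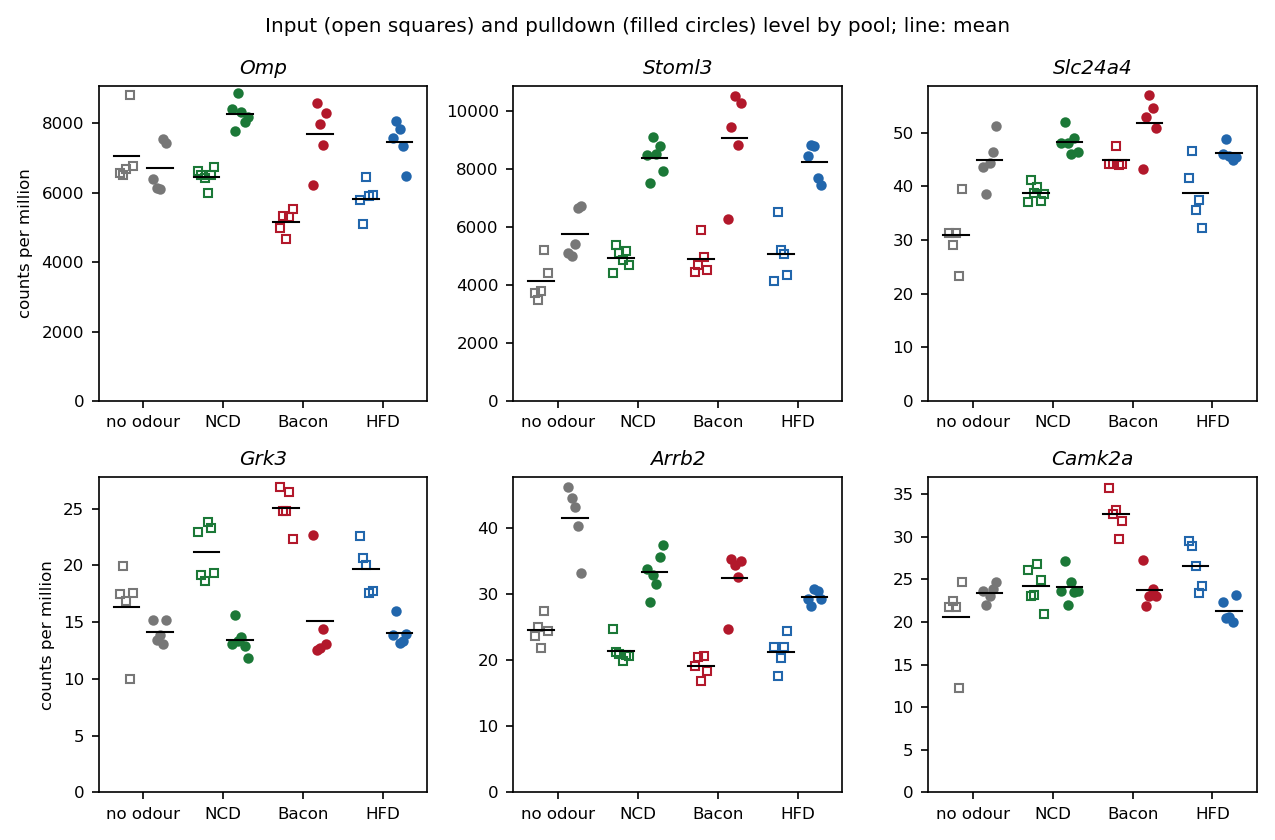
Input (open squares) and pulldown (filled circles) level of 6 members in every pool, in CPM from 0, with a line at each group mean. Stoml3 pulldowns rise above the controls in nearly all odour pools, whereas Slc24a4, Grk3 and Camk2a inputs are highest with Bacon odour at pulldown levels close to the controls.

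For the phosphodiesterases, which break down cyclic AMP, no ratio difference passed either threshold. Pde1c had a log2 ratio of 0.26 ± 0.18 (SD) without odour and 0.30 ± 0.06, 0.29 ± 0.09 and 0.25 ± 0.11 with NCD, Bacon and HFD odour, with differences of 0.03, 0.02 and -0.01 and SEs of 0.08 to 0.09. Its pulldown was 236 to 265 CPM without odour and 275 to 294 CPM with NCD odour, without overlap, a difference of 0.19 ± 0.05 that passed the looser threshold only (adjusted p = 0.00375). The input differed in the same direction by 0.17 ± 0.06 (adjusted p = 0.0352). Pde4a had a ratio of 0.38 ± 0.23 (SD) without odour and 0.39 ± 0.08, 0.34 ± 0.11 and 0.22 ± 0.08 with NCD, Bacon and HFD odour, and none of its 9 comparisons with the controls passed either threshold. Of the 5 other Pde1 and Pde4 genes listed (Pde1a, Pde1b, Pde4b, Pde4c and Pde4d), 0 were called under any odour in ratio, input or pulldown, and in the inputs without odour they had 0.220 to 2.06 CPM per kb, below both members.

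Of the genes that remove calcium, the exchanger rose in the input under Bacon. The pump was not called against the controls under any of the odours. Slc24a4 had an input level of 31.4, 29.2, 31.4, 23.4 and 39.6 CPM in the no odour pools and 44.2, 44.1, 47.5, 44.1 and 44.2 CPM in the Bacon pools, which lay above all controls. The input rose by 0.53 ± 0.10 on the log2 scale under Bacon (adjusted p = 0.000194), and the differences of 0.32 ± 0.09 under NCD (adjusted p = 0.0158) and 0.32 ± 0.10 under HFD (adjusted p = 0.0225) passed the looser threshold. The pulldown differed less, by 0.21 ± 0.07 under Bacon (adjusted p = 0.0297). The log2 ratio of Slc24a4 was lower with Bacon odour at the looser threshold, at 0.20 ± 0.14 (SD) against 0.55 ± 0.25 without odour, a difference of -0.34 ± 0.10 (SE, adjusted p = 0.0173). The highest control ratio, 0.99, was that of pool 4, and the difference was -0.18 (adjusted p = 0.124) without that pool and Bacon pool 1. Its relative Slc24a2 had 14.6 CPM per kb in the inputs without odour against 6.85 CPM per kb for Slc24a4. The input of Slc24a2 also rose under Bacon, by 0.63 ± 0.11 (adjusted p = 9.95e-05). Slc24a2 has 12.217 kb of exon, and all genes over 8 kb had a median input change of 0.255 under Bacon.

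Atp2b2 had the largest differences in the pulldown of all members, and they rested on 3 pools. Its pulldown level was 14.0, 16.5 and 16.6 CPM in the no odour pools 1, 2 and 3, and 4.91 and 5.67 CPM in pools 4 and 6. The 16 pools with an odour had 4.95 to 8.58 CPM. The low controls thus lay at the lower end of the odour pools, and the high controls, those with Purkinje cell markers, lay far above them. Purkinje cells are known to express Atp2b2 at a high level, and their part in the differences of Atp2b2 was not tested. The differences in the pulldown were -0.95 ± 0.25 under NCD (adjusted p = 0.0102), -0.85 ± 0.26 under Bacon (adjusted p = 0.0275) and -0.60 ± 0.26 under HFD (adjusted p = 0.102). Without the no odour pools 1, 2 and 3 they were 0.15, 0.25 and 0.50, with adjusted p-values of 0.646, 0.456 and 0.0586. The ratio difference under HFD likewise turned, from -0.15 to 0.25, and the others shrank: they stood at -0.58 ± 0.14 under NCD and -0.61 ± 0.14 under Bacon with all controls (adjusted p = 0.00831 and 0.00311) and at -0.19 and -0.20 without the 3 pools (adjusted p = 0.537 and 0.483). In the inputs the markers summed to 47.0 to 49.8 CPM in the 3 pools and 19.8 to 32.8 CPM elsewhere, and Atp2b2 had 7.94 to 9.04 CPM there against 3.88 to 6.91 CPM. The input differences of Atp2b2 were -0.29, -0.17 and -0.37 under NCD, Bacon and HFD with all controls and 0.36, 0.46 and 0.27 without the 3 pools. The latter rest on pools 4 and 6 alone, with inputs of 3.88 and 4.97 CPM, and the input of pool 4 was one that stood apart. Of the other 3 pumps, Atp2b1 rose in the input under Bacon by 0.50 ± 0.09 (adjusted p = 0.000206), and Atp2b3 and Atp2b4 were not called. Atp2b1 has 15.218 kb of exon and belongs to the same length class, with a median input change of 0.255 under Bacon for genes over 8 kb.

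**Figure D3:**
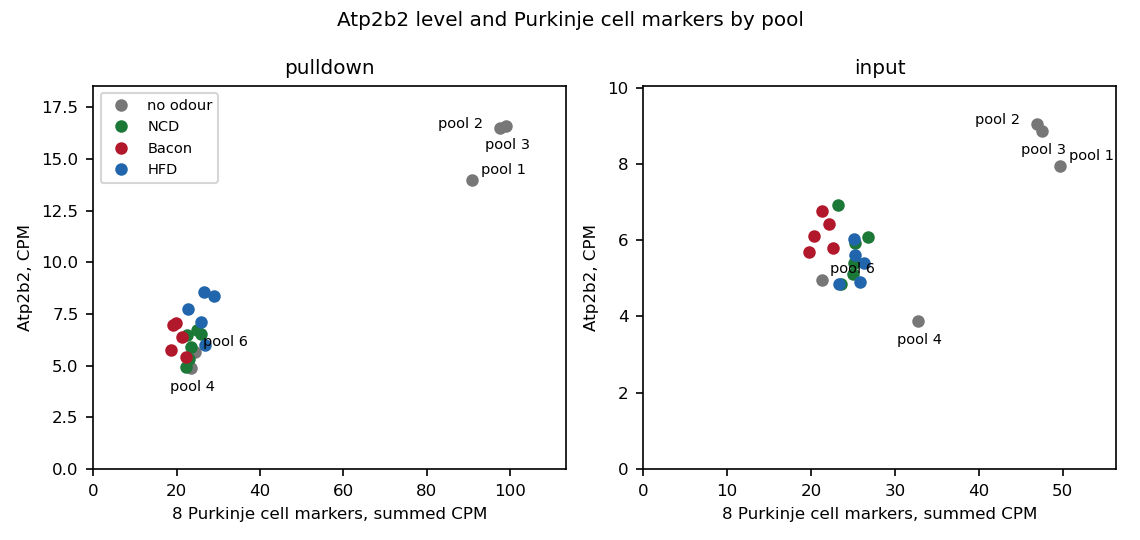
Level of Atp2b2 against the summed level of 8 Purkinje cell markers, both in CPM, for every pool, in pulldowns (left) and inputs (right), with the no odour pools numbered. The no odour pools 1, 2 and 3 stand alone at 90.9 to 99.0 CPM of markers and 14.0 to 16.6 CPM of Atp2b2 in the pulldown.

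Of the genes that act on the receptor, Grk3 changed in the input and Arrb2 in the pulldown. Grk3 had an input level of 17.4, 19.9, 16.9, 9.99 and 17.6 CPM in the no odour pools and 26.9, 24.8, 24.8, 26.5 and 22.4 CPM in the Bacon pools, without overlap. It rose by 0.61 ± 0.12 under Bacon (adjusted p = 0.000439), and the NCD difference of 0.37 ± 0.12 passed the looser threshold (adjusted p = 0.0253). No pulldown difference of Grk3 passed: the level was 14.1 ± 1.01 CPM without odour and 13.4 ± 1.24, 15.1 ± 4.31 and 14.1 ± 1.15 CPM with NCD, Bacon and HFD odour, and the high Bacon value of 22.7 CPM was that of pool 1. Its log2 ratio was -0.17 ± 0.35 (SD) without odour and -0.65 ± 0.22, -0.77 ± 0.30 and -0.48 ± 0.16 with NCD, Bacon and HFD, and the differences of -0.48 ± 0.15 (SE) under NCD and -0.58 ± 0.15 under Bacon passed the looser threshold (adjusted p = 0.0332 and 0.00757). Without Bacon pool 1 the Grk3 ratio was called under Bacon, while its input call was lost without no odour pool 3 or without Bacon pool 1, 2, 3 or 4, each left out alone.

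Arrb2 fell in the pulldown. Its level was 46.1, 44.4, 43.1, 40.3 and 33.1 CPM in the no odour pools and 29.2, 28.2, 30.7, 30.4 and 29.3 CPM in the HFD pools, which lay below every control. It fell by 0.49 under HFD (SE 0.09, adjusted p = 0.000313), and the differences of -0.33 ± 0.08 under NCD (adjusted p = 0.00775) and -0.35 ± 0.09 under Bacon (adjusted p = 0.00659) passed the looser threshold. The input went the same way, with 24.5 ± 2.06 CPM without odour and 19.1 ± 1.58 CPM with Bacon odour (-0.36 ± 0.08, adjusted p = 0.00131), so that the log2 ratio was 0.75 ± 0.24 (SD) without odour and 0.75 ± 0.26 with Bacon odour. Macrophage markers, of cells that also express Arrb2, summed to 84.1 to 121 CPM in the pulldowns without odour against 51.7 to 70.5, 41.8 to 68.3 and 57.2 to 62.8 CPM with NCD, Bacon and HFD odour, and their part in the fall of Arrb2 was not tested. The HFD call was lost without any of the no odour pools 1, 2 or 3 or the HFD pools 1 or 2, and without the no odour pools 1, 2 and 3 together the Arrb2 pulldown difference was -0.33 (adjusted p = 0.0654). The other arrestin of the list, Arrb1, differed in the ratio: it fell under Bacon by 0.62 (SE 0.10, adjusted p = 0.000204). It was the only one of 22 tested relatives of the members called there, against 3.78% of all genes. Arrb1 has 11.175 kb of exon, and all genes over 8 kb had a median ratio change of -0.258 under Bacon.

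Camk2a, the kinase, rose in the input under Bacon, and its pulldown passed no threshold. Its input was 21.7, 22.5, 21.7, 12.3 and 24.7 CPM in the no odour pools and 35.8, 32.7, 33.2, 29.7 and 31.8 CPM in the Bacon pools, above every control. The input rose by 0.66 ± 0.12 under Bacon (adjusted p = 0.000224), and the HFD difference of 0.36 ± 0.12 passed the looser threshold (adjusted p = 0.0363). The pulldown was 23.4 ± 1.02 CPM without odour and 24.1 ± 1.71, 23.8 ± 2.09 and 21.3 ± 1.38 CPM with NCD, Bacon and HFD odour. All Bacon pools (-0.58 to -0.32) and all HFD pools (-0.50 to -0.06) had a lower log2 ratio than the lowest control (-0.03). The ratio difference of -0.67 ± 0.14 under Bacon missed the threshold by little (adjusted p = 0.00112), and that under HFD was -0.53 ± 0.14 (adjusted p = 0.0111). Pool 4 of the controls had the highest ratio, 0.96, and without it and Bacon pool 1 the Camk2a ratio was called under Bacon at -0.52 (adjusted p = 0.000615). Its input rose under Bacon in the same fit by 0.49 (adjusted p = 9.60e-05). Of its relatives, Camk2d rose in the pulldown under NCD by 0.31 ± 0.05 (adjusted p = 0.000244), and Camk2b and Camk2g were not called.

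In the inputs, then, 4 of 9 members were called under Bacon odour, with Camk2a, Grk3 and Slc24a4 higher and Omp lower, against 13.7% of all genes tested. With the ribosomal RNA share of each library as a covariate, 0 of the 4 were called, at 0.43 ± 0.25 for Grk3, 0.28 ± 0.23 for Camk2a, -0.03 ± 0.15 for Slc24a4 and -0.20 ± 0.16 for Omp. That share was 22.2 to 33.0% in the no odour inputs and 10.7 to 14.8% in the Bacon inputs, without overlap. Bacon odour and ribosomal RNA share can therefore hardly be told apart in that fit. A fit on the Bacon and no odour pools alone also called 0, with differences of 0.60, 0.65, 0.52 and -0.47 in the same order, close to those of all pools. Without the no odour pools 1, 2 and 3 the inputs of Omp and Grk3 were still called. Those of Camk2a at 0.81 (adjusted p = 0.00195) and Slc24a4 at 0.50 (adjusted p = 0.00952) were not. That fit left pools 4 and 6 as controls, and the input of pool 4 was one that stood apart. In pools 4 and 6 the input was 8816 and 6762 CPM for Omp and 9.99 and 17.6 CPM for Grk3, so these 2 calls lean on pool 4. Under NCD and HFD odour 0 members were called, against 0.998% and 0.963% of all genes. At the looser threshold the input counts were 3, 5 and 3 members under NCD, Bacon and HFD, against 23.5%, 39.8% and 21.7% of all genes. The plot of pulldown change against input change sets these side by side: for Slc24a4, Grk3 and Camk2a the input moved and the pulldown did not pass the stricter threshold, for Stoml3 the pulldown moved, and for Arrb2 both fell by similar amounts under Bacon.

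**Figure D4:**
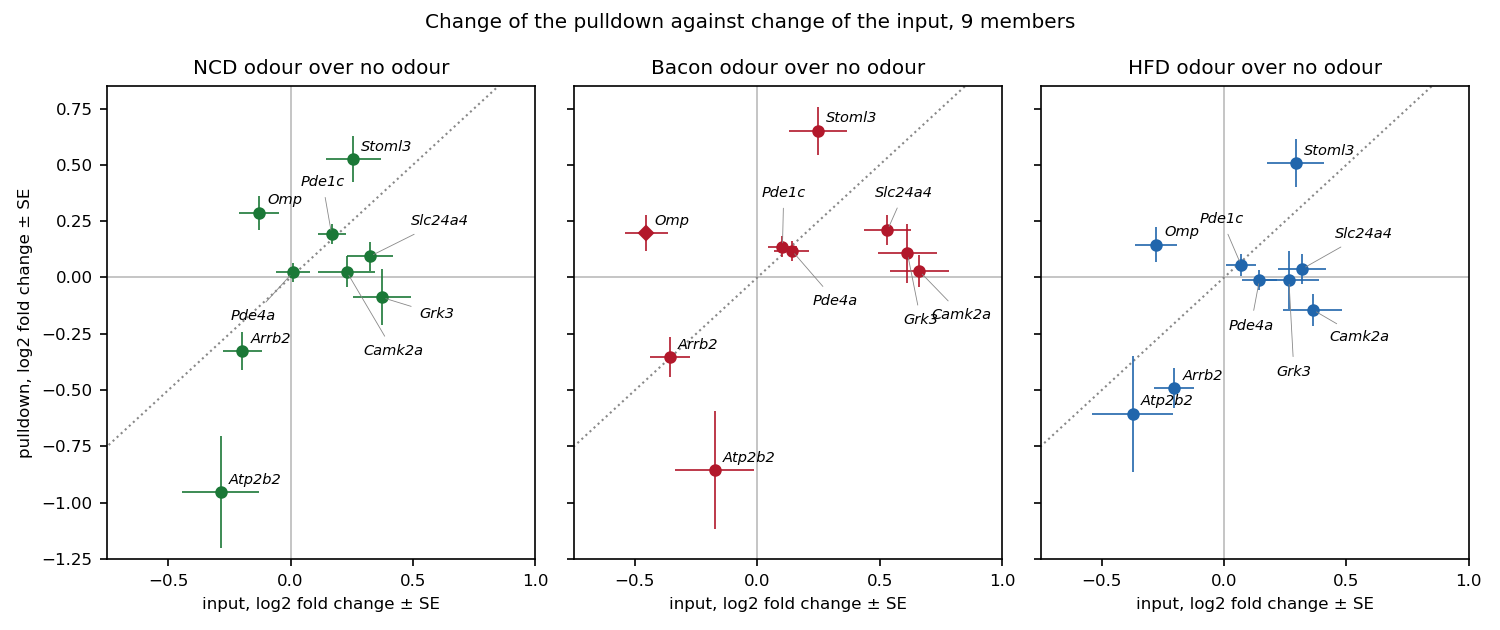
Log2 fold change of the input (horizontal) and of the pulldown (vertical) of each member against no odour, with SEs, for NCD, Bacon and HFD odour; the dotted line marks equal changes, where the ratio does not change. Omp lies above the line in each panel and is the diamond with Bacon odour, where its ratio was called; Grk3, Camk2a and Slc24a4 lie below it.

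The inputs also moved with exon length over all genes, and the members differ in length. Under Bacon odour the median log2 change in the input was -0.19 for genes under 1 kb, lowest at -0.25 for genes of 1 to 2 kb, and 0.26 for genes over 8 kb, while in the pulldown the medians of all length classes lay between 0.00 and 0.09. In the ratio they ran from 0.33 for genes under 1 kb to -0.26 for genes over 8 kb. In the input under NCD and HFD the medians ran from -0.25 and -0.20 for genes under 1 kb to 0.16 and 0.16 for genes over 8 kb. Omp, of 2.144 kb, fell further in the input than the median of its class (-0.11), and Camk2a (7.465 kb), Grk3 (8.693 kb) and Slc24a4 (4.522 kb) rose further than the medians of theirs (0.12, 0.26 and 0.04). Pde1c (20.067 kb) and Pde4a (7.655 kb) had no called change in a class whose median rose. The input of Pde1c differed by 0.10 against a class median of 0.26, and that of Pde4a by 0.14 against 0.12. With an offset for exon length in the fit, an alternative added after this was seen, the ratio of Omp was still called under Bacon at 0.48 (adjusted p = 0.000455), and so were the inputs of Camk2a at 0.53 (adjusted p = 0.000290) and Slc24a4 at 0.52 (adjusted p = 0.000227). The inputs of Grk3 at 0.44 (adjusted p = 0.00145) and Omp at -0.27 (adjusted p = 0.00325) no longer passed. The input of Pde1c, the longest member, turned from 0.10 to -0.33 (adjusted p = 0.000184), a shift whose cause was not tested.

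**Figure D5:**
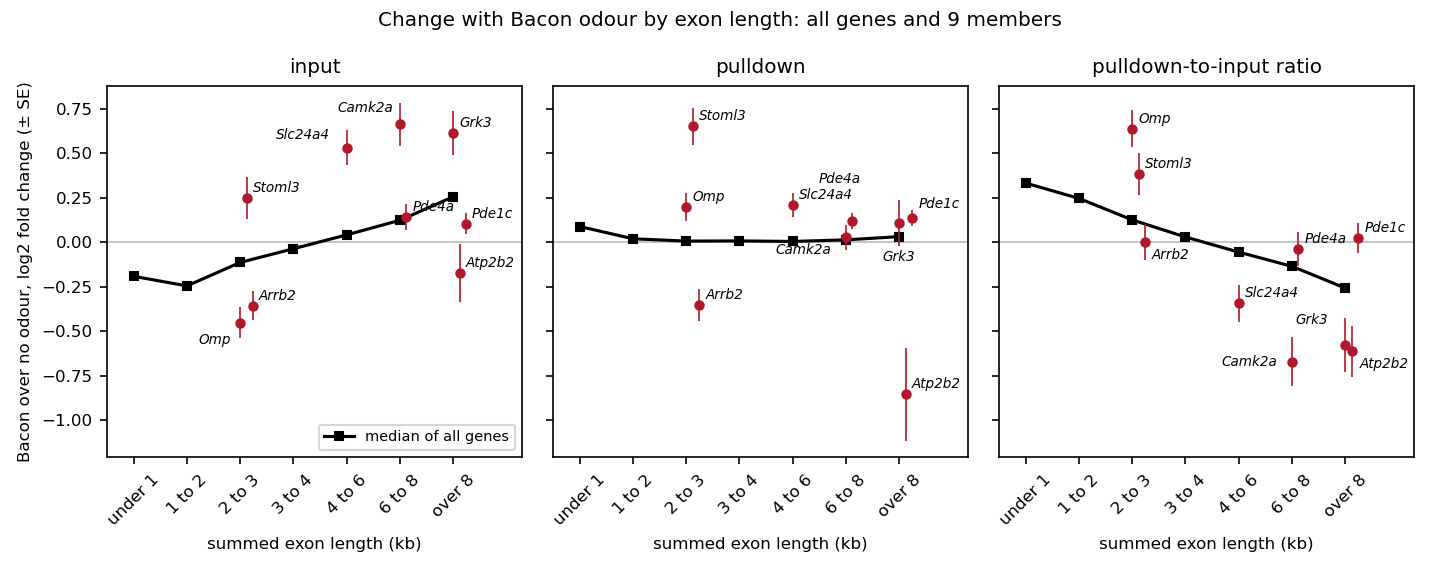
Change with Bacon odour against no odour in input, pulldown and ratio by summed exon length: black squares join the medians of all genes in each length class, and red points with SEs are the members in their class. The black line dips from -0.19 to -0.25 at 1 to 2 kb and climbs to 0.26 in the input, stays between 0.00 and 0.09 in the pulldown and falls from 0.33 to -0.26 in the ratio, while Omp, Stoml3, Pde4a and Pde1c lie above it in the ratio and Arrb2, Slc24a4, Camk2a, Grk3 and Atp2b2 below it.

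No member was called between the odours. For the ratio, 0 of 9 members were called between Bacon and NCD, HFD and NCD, or HFD and Bacon, where 0.00945%, 0.0236% and 0.0378% of all genes passed the stricter one. The differences ran from -0.45 ± 0.13 for Camk2a, Bacon over NCD (adjusted p = 0.472), to 0.46 ± 0.14 for Atp2b2, HFD over Bacon (adjusted p = 0.366). With SEs of 0.08 to 0.15, small differences between odours were not detectable.

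The genes that start the response give a background to those that end it. Of the 12 cascade genes listed, from the G protein to the channels and receptor transport proteins, 1 was called in the ratio under Bacon. There 3.78% of all genes were called, and under NCD or HFD 0 of the 12 were. Under Bacon the ratio of Gng13, a G protein gamma subunit, rose by 1.33 ± 0.24 (adjusted p = 0.000614). Gng13 has 0.773 kb of exon, and all genes under 1 kb had a median ratio change of 0.33 there. The Gng13 pulldown differed by 0.23 ± 0.14 (adjusted p = 0.271). Its input fell under Bacon by 1.17 (SE 0.22, adjusted p = 0.000390), as did that of its partner Gnb1, by 0.43 (SE 0.08, adjusted p = 0.000166), whereas the input of Cngb1, a subunit of the cyclic AMP-gated channel, rose by 0.38 ± 0.07 (adjusted p = 0.000126). In the pulldown Cngb1 rose under all 3 odours, by 0.32 ± 0.06, 0.35 ± 0.06 and 0.38 ± 0.06 under NCD, Bacon and HFD (adjusted p = 0.000369, 0.000176 and 7.22e-05), where 4.11%, 4.22% and 5.00% of all genes were called. Ric8b, a helper of the olfactory G protein, rose there under NCD by 0.25 ± 0.04 (adjusted p = 0.000276) and under Bacon by 0.23 ± 0.05 (adjusted p = 0.000690). Of 22 tested relatives of the members, 3 rose in the input under Bacon (Slc24a2, Atp2b1 and Grk4, the last by 0.53 ± 0.10, adjusted p = 0.000237) and 0 fell, a share close to the 13.7% of all genes called there. Of 7 calmodulin and sodium-calcium exchanger genes, Calm3 alone was called, falling in the input under Bacon by 0.42 (SE 0.07, adjusted p = 0.000121), again against 13.7% of all genes.

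Where no gene of a list passed, those with the smallest p-values were these. In the ratio under NCD, Gng13 (0.94, adjusted p = 0.0107) and Gnb1 (0.28, 0.0312) led the cascade list, Arrb1 (-0.47, 0.00380) and Camk2g (-0.37, 0.0102) the relatives, and Calm2 (0.37, 0.0324) the calcium list. In the ratio under HFD they were Gnal (-0.32, adjusted p = 0.0183) and Gng13 (0.80, 0.0261), Arrb1 (-0.38, 0.0134) and Slc24a2 (-0.42, 0.0339), and Calm2 (0.39, 0.0247) and Slc8a1 (-0.34, 0.0453), and under Bacon in the calcium list Calm2 (0.57, 0.00116). Arrb1, the sister of Arrb2, was thus lower in the ratio at the looser threshold under each odour. In its length class, over 8 kb, the medians of all genes were -0.189, -0.258 and -0.215 under NCD, Bacon and HFD. In the input, Adcy3, the cyclase, led the cascade list under NCD (0.29, adjusted p = 0.00274) and HFD (0.25, 0.00714), with Gnal (0.32, 0.00661) and Cngb1 (0.26, 0.00843). Slc24a2 and Atp2b1 led the relatives under NCD (0.46, adjusted p = 0.00353, and 0.38, 0.00484) and HFD (0.44, 0.00584, and 0.33, 0.0132). In the calcium list Slc8a1 (0.26, adjusted p = 0.0102) and Calm3 (-0.22, 0.0270) led under NCD, and Calm3 (-0.27, 0.0116) and Calm2 (-0.25, 0.0871) under HFD. In the pulldown the leading relatives were Grk2 (-0.44, adjusted p = 0.00335) and Camk2d (0.24, 0.00392) under Bacon and Pde1a (0.47, 0.00190) and Pde4d (0.28, 0.00666) under HFD. In the calcium list they were Calm2 under NCD (0.22, adjusted p = 0.0162) and Bacon (0.19, 0.0508), and Slc8a1 under HFD (-0.30, 0.0149). Between odours, Stom, a relative of Stoml3, had the smallest p-value of the 3 lists, with a lower ratio under HFD than under Bacon (-0.39 ± 0.08, adjusted p = 0.0308), and 0 genes of the lists were called. In the pulldown over the input without odour, 5 cascade genes were higher and 1 lower, 8 relatives higher and 3 lower, and 1 gene of the calcium list higher and 1 lower, against 35.8% of all genes called in either direction.

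Across the 21 pools the ratios of the members were related in pairs, which is given as a description, since the pools share group differences and libraries. Camk2a and Slc24a4 went together (Pearson's r = 0.82, and 0.73 after the odour group means were removed), as did Camk2a and Grk3 (0.71 and 0.70), and Omp went against Camk2a (-0.79 and -0.61). Among 12047 genes with a mean of at least 5 CPM, the ratio of Omp was most like those of Ss18l2 (r = 0.97) and Tmsb4x (0.97), that of Stoml3 like Adipor1 (0.97) and 1110032A03Rik (0.95), that of Camk2a like Rev3l (0.96) and Gpatch8 (0.96), and that of Slc24a4 like Mfhas1 (0.95) and Kcnma1 (0.95). Grk3 was most like Cdkn1b (0.94) and Srgap3 (0.89), Pde4a like Elavl3 (0.91) and Sdc3 (0.87), Arrb2 like Med25 (0.84) and Gm11175 (0.84), Pde1c like Heg1 (0.83) and Ppp2r2c (0.83), and Atp2b2 like Atp1b2 (0.86) and Sparcl1 (0.81). By input level over the same pools, Omp was most like Hnrnpa1 (0.98) and Pgam1 (0.98), Stoml3 like Ptn (0.96) and Ybx3 (0.95), Camk2a like Nsun7 (0.98) and Dnah11 (0.98), Slc24a4 like Bbx (0.97) and Atp11a (0.96), and Grk3 like Slc39a9 (0.95) and Ttf1 (0.95). Arrb2 went with Rnf183 (0.94) and AI837181 (0.94), Pde4a with Rexo1 (0.95) and AI506816 (0.93), Pde1c with Gk5 (0.93) and Dpysl3 (0.93), and Atp2b2 with Camk4 (0.85) and Gprc5b (0.83). No member was among the 2 genes most like another.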

How the data were processed

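The authors amplified the RNA with a kit that does not mark strand, sequenced paired ends, and estimated reads per gene with Salmon on GRCm38 in the nf-core rnaseq pipeline. They deposited expected counts per gene, not normalized, of which 30.9% of values are not whole. The authors' own comparisons were not used.

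The expected counts were rounded for the fits. The filter was filterByExpr with a minimum count of 10, which left 21168 genes for the ratio, 20451 for the input and 19765 for the pulldown. The ratio was fitted with edgeR 4.0.16 (R 4.3.3, limma 3.58.1) by the robust quasi-likelihood method with TMM scaling, pool terms and an effect of the pulldown in each odour group, and input and pulldown levels with odour alone. P-values are two-sided, were adjusted by Benjamini-Hochberg over all genes, and measure the spread between pools. Log2 levels used a prior count of 2. The fit was tested on simulated data. Genes were named as members, as listed genes past the threshold or, where none passed, the 2 with the smallest p (lists are given by counts for pulldown over input and between odours), or as the 2 most like each member. Some results that this rule would name are not reported here. Members and lists were chosen with earlier results of these data known, and the Purkinje cell list after its values were seen. All 90 pairs of libraries within a group differed beyond sampling noise, with chi-square over its degrees of freedom at 3.33 or more. Alternatives included DESeq2 1.42.0, other scalings and filters, limma on log2 ratios, covariates and leaving out each pool.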

Additional observations from a re-analysis of the deposited data

Results flagged for a closer look

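Each member's log2 ratio, input level and pulldown level was examined in each odour group for a pool whose gap to the nearest other pool was large for the range of its group. Of 108 groups examined, 14 held such a pool, where chance gives about 5.4 (1 in 20), and the readouts of a member share pools and are not independent. Of these, 7 fell in no odour pool 4, 5 in Bacon pool 1 and 2 in others.

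In no odour pool 4 the log2 input level was 13.11 for Omp (12.67 to 12.72 in the other pools), 8.33 for Pde4a (8.68 to 8.82), 3.33 for Grk3 (4.08 to 4.32) and 3.62 for Camk2a (4.45 to 4.63). The log2 ratio there was 0.78 for Pde4a (0.22 to 0.36), 0.99 for Slc24a4 (0.37 to 0.50) and 0.96 for Camk2a (-0.03 to 0.12). The short Omp was thus high and longer members low in this input.

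In Bacon pool 1 the log2 pulldown level was 7.93 for Pde1c (8.08 to 8.13), 4.51 for Grk3 (3.66 to 3.86) and 4.63 for Arrb2 (5.03 to 5.14), and the log2 ratio was 0.12 for Pde1c (0.30 to 0.35) and -0.24 for Grk3 (-0.98 to -0.77). The pulldown of this pool also held the most sustentacular and horizontal basal cell marker RNA of all Bacon pulldowns, 4872 and 38.6 CPM.

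Elsewhere, the log2 input level of Arrb2 in NCD pool 1 was 4.63 (4.32 to 4.41 in the other pools), and that of Slc24a4 in Bacon pool 3 was 5.57 (5.46 to 5.47).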

How the results depend on the processing

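Counts of members called in a comparison are given in the order NCD, Bacon, HFD against no odour, and were 0, 1, 0 for the ratio, 0, 4, 0 for the input and 1, 1, 1 for the pulldown. At an adjusted p-value under 0.05 they were 3, 6, 2 (ratio), 3, 5, 3 (input) and 5, 5, 2 (pulldown). With DESeq2 they were 1, 2, 1 for the ratio and 4 (NCD) and 2 (HFD) for the pulldown. With a covariate for ribosomal RNA share, the Bacon ratio and input counts and all 3 pulldown counts were 0, and the Slc24a4 input difference under Bacon was -0.027. The pulldown differences of Stoml3 there were 0.42 under Bacon and 0.30 under NCD, against 0.65 and 0.53 without the covariate. For Arrb2 under HFD the pulldown difference was -0.26 against -0.49. Fits on the compared groups only gave 0 for the Bacon ratio, input and pulldown, 2 for the HFD pulldown and 2 of 6 for pulldown over input without odour. With no filter beyond 1 count, the Bacon ratio count was 2 and the NCD pulldown count 0. Without the libraries that stand apart the counts were 4 (Bacon ratio), 4 (NCD pulldown) and 2 (HFD pulldown). Without the no odour pools 1, 2 and 3 they were 0 (Bacon ratio), 2 (Bacon input), 0 (each pulldown) and 2 (pulldown over input). With the offset by exon length the HFD pulldown count was 2 and the Pde1c input difference under Bacon -0.33. These last 3 settings were chosen after seeing the data. Where the Omp ratio call under Bacon was lost, its difference stayed at 0.60 with the covariate, 0.66 on the compared groups, 0.64 without the no odour pools 1, 2 and 3 and 0.64 with the replicate block. The cause of these shifts was not tested.

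Replicate numbers do not pair pools across odours: the ratio deviations of same-numbered pools had a median correlation of 0.02 (-0.21 to 0.11, 27 pairs). With the number as a replicate block the counts were 0 (Bacon ratio), 2 (Bacon input), 0 (NCD and HFD pulldown) and 2 (pulldown over input without odour).

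With each of the 21 pools left out in turn, the counts ran from 0 to 2 (Bacon ratio), 2 to 5 (Bacon input), 0 to 3 (NCD pulldown), 1 to 2 (Bacon pulldown), 0 to 2 (HFD pulldown) and 5 to 6 (pulldown over input), and stayed at 0 to 0 elsewhere. With 5 or 6 pools a group, only differences above their spread are called. Log2 ratios with a prior count of 0.5 have no test and were not run as an alternative.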
